A study of Mus musculus with 3 samples.

Results

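The genes that set the endoderm apart from the epiblast of E7.5 mouse embryos were compared between 1 RNA-seq library of each germ layer. A gene was taken as differing when its RPKM, the reads of a gene scaled by its length and by the reads counted in the library, was above 5 in at least 1 of the libraries and its RPKM ratio was above 2 in either direction. Of 17267 genes with a read in either library, 8843 had an RPKM above 5 in at least 1 and 2176 met both criteria, 1385 of them higher in endoderm and 791 higher in epiblast. The genes higher in endoderm made up 8.02% of all genes with a read and 15.7% of those above RPKM 5, and the genes higher in epiblast 4.58% and 8.94%. These shares follow from the criteria and are given only as the background of the counts below.

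The study profiled splicing in the 3 germ layers of gastrulating embryos, and a read was found on 17633 genes in the series as a whole. Embryos of the ICR strain were taken at E7.5. Reichert's membrane was removed, and the germ layers of the embryonic region were separated with trypsin, pancreatin and needles. RNA pooled from a large number of embryos was sequenced as 1 library for the tissue labelled Endoderm and 1 for that labelled Epiblast, and the epiblast sample holds the neuroectoderm and the primitive streak. No replicate checks the differences below, which therefore compare 2 libraries, and no test of the germ layers was possible. Intervals and limits from read numbers cover counting error only, and PCR duplicates are not separate molecules.

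At this stage the epiblast is the epithelium from which all tissues of the fetus arise, and its cells pass through the primitive streak to form mesoderm and definitive endoderm. The outer layer of the embryo is first made up of visceral endoderm, an absorptive and secretory epithelium that takes up maternal nutrients and makes plasma proteins before a liver exists. Definitive endoderm cells, the source of the gut, then insert into this layer, so that both kinds of endoderm lie on the surface of the embryo.

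Most genes listed as markers of either kind of endoderm were high in the library labelled Endoderm, and most listed for epiblast and streak in that labelled Epiblast. Whether the definitive endoderm list separates definitive from visceral endoderm was not tested. Of 13 definitive and axial endoderm markers 10 were higher in endoderm, with a median log2 ratio of endoderm over epiblast of 3.59. *Ttr*, 1 of these 10, is also in the visceral endoderm list, and the axial gene *Gsc* was near 0 in both libraries (0.223 against 0.396 RPKM, endoderm first). The transcription factor *Sox17* had an RPKM of 39.5 against 0.322 in epiblast, *Foxa2* of 43.96 against 2.58 (values joined by "against" are RPKM, with endoderm first), and the secreted antagonist *Cer1* of 138 against 0.659. *Otx2*, which is also an anterior epiblast gene, was the marker of this list that lay higher in epiblast (27.4 against 58.3). All 14 visceral endoderm markers were higher in endoderm, with a median log2 ratio of 10.48, and their RPKM summed to 11747 in endoderm and 115.1 in epiblast. Of 14 epiblast and ectoderm markers 11 were higher in epiblast, with a median log2 ratio of -3.18, and *Fgf5*, a gene of the early post-implantation epiblast, had 6.64 in endoderm and 6.32 in epiblast. Of 14 primitive streak markers 10 were higher in epiblast, with a median log2 ratio of -2.03, while *Eomes* (9.51 against 14.5) and *Sp5* (28.8 against 16.8) were under the fold criterion.

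Markers of other tissues that the dissection could have carried over also differed between the libraries, and their part in the results below was not tested. Of 10 parietal endoderm markers 9 were higher in endoderm, and their RPKM summed to 561.0 in endoderm and 115.6 in epiblast. *Sparc* (165 against 49.6), *Col4a1* (160.4 against 20.6) and *Lama1* (17.2 against 3.09) belong to that list and to basement membrane in general. Outside the matrix genes, *Pth1r* (38.8 against 2.49), *Srgn* (15.1 against 0.0250) and *Plat* (13.1 against 1.14) were higher in endoderm too, and *Thbd* was near 0 in both (0.149 against 0.107). Of 12 trophoblast and extra-embryonic ectoderm markers 2 were higher in endoderm, *Plac1* (19.9 against 0.569) and *Esx1* (7.11 against 0.130). A further 3 were higher in epiblast, *Cdx2* (18.4 against 37.1), *Hand1* (0.999 against 33.2) and *Tfap2c* (0.143 against 5.65), and *Cdx2* was not past 2-fold under TMM scaling, which sets the libraries equal by a trimmed mean of gene ratios. Of the defining trophoblast genes *Elf5* was at 0.108 against 0.328 and 3 of the list had no read in either library. The RPKM of this list summed to 49.5 in endoderm and 79.8 in epiblast. No primitive erythroid marker reached RPKM 5, with sums of 4.002 and 4.798, and 4 of the 9 had no read. Of 7 decidua markers only *Bmp2* met the criteria, a ligand also listed under the BMP pathway, and 2 had no read. Of 14 mesoderm markers 3 were higher in epiblast, *Msgn1* (2.79 against 38.9), *Hand1* and *Lefty2* (2.56 against 15.3), 1 was higher in endoderm, *Twist1* (5.57 against 2.36), and *Kdr* was at 0.272 against 0.771. In bulk samples such as these, fewer cells of a type and less RNA per cell cannot be told apart.

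**Figure D1:**
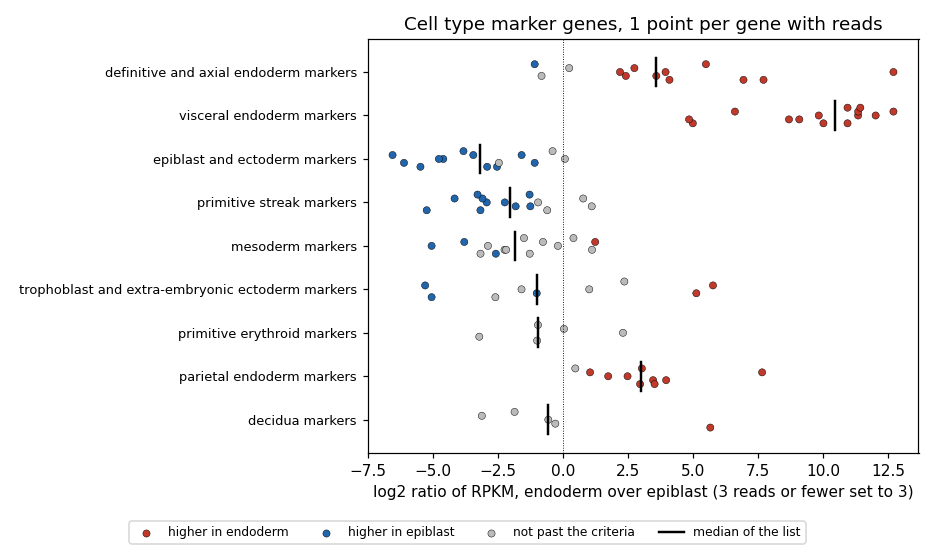
Log2 ratio of RPKM, endoderm over epiblast, of the genes of 9 cell type marker lists, with 1 point per gene with reads, the black bar marking the median of the list. Red and blue points met the criteria in endoderm and epiblast, all 14 visceral endoderm markers lie on the right, and the 14 epiblast markers lie on the left or near 0.

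The libraries were alike in depth, with 41.7 M and 42.7 M reads counted on genes in endoderm and epiblast, 16385 and 16430 genes listed, a median of 576 and 536 reads per listed gene and 6.46% and 6.37% of the reads on the 10 most abundant genes. Genes missing from a table were given 0 reads, a count compatible with up to 3. The criteria were applied with a count of 3 reads or fewer set to 3. A fold against 0 reads is given as at least the fold against 3 reads, and a ratio against 1 to 3 reads with its counting interval. The median log2 ratio over all genes with reads was -0.02, and over genes above RPKM 5 it was -0.08.

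The endoderm side was the more extreme. Its median fold was 3.69, against 2.98 on the epiblast side. More than 10-fold higher were 327 genes in endoderm and 90 in epiblast, more than 100-fold 110 and 5, and more than 1000-fold 17 and 0. For 253 of the 1385 genes higher in endoderm the epiblast RPKM was under 1, and for 87 of the 791 genes higher in epiblast the endoderm RPKM was under 1. The lower library still had an RPKM above 5 for 599 of the genes higher in endoderm and 333 of those higher in epiblast, so that many differences were of degree. Genes higher in endoderm took 21.4% of all endoderm reads and 3.997% of epiblast reads, and genes higher in epiblast took 9.20% of epiblast reads and 3.31% of endoderm reads.

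**Figure D2:**
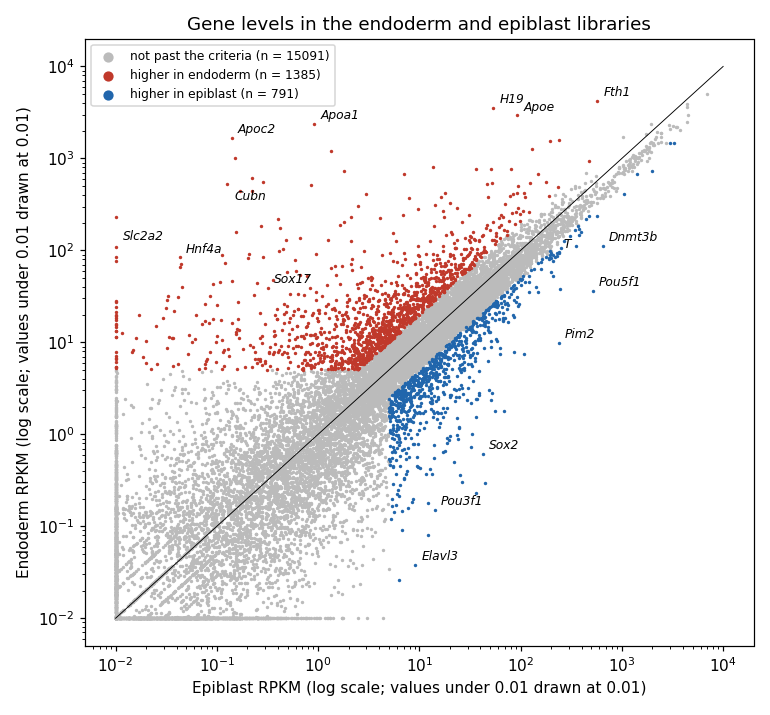
RPKM of each gene in endoderm (vertical axis) against epiblast (horizontal axis), both on log scales, with values under 0.01 drawn at 0.01 and equal levels on the line. The 1385 genes higher in endoderm (red) reach much farther from the line than the 791 higher in epiblast (blue).

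Some of the most abundant genes past the criteria belonged to none of the lists. On the endoderm side these were *Emb*, a partner of monocarboxylate transporters (RPKM 1561 against 195), and *Car4*, a carbonic anhydrase (1251 against 131). On the epiblast side they were *Rn18s*, a ribosomal RNA (734 against 1969), *Mif* (1471 against 3013), the histone chaperone *Nap1l1* (237 against 476) and *Marcksl1* (218 against 440.5). The last 3 were not past 2-fold under TMM scaling. Among the largest folds on the epiblast side outside the lists were *Jph4* (151-fold), *Foxi3*, a forkhead factor (149-fold), *2900011O08Rik* (86.4-fold) and *Vat1l* (72.5-fold). Most genes past the criteria were protein-coding, 1361 on the endoderm side and 759 on the epiblast side, with 13975 on neither. Long non-coding RNAs numbered 12 on the endoderm side and 17 on the epiblast side, with 716 on neither. Their share past the criteria was thus smaller on both sides.

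Near the fold threshold the calls turned on small differences. Just inside on the endoderm side were *Mavs* (2.001-fold), *Man1a2* and *Acbd3*, and just outside were *Nek7*, *Ppap2c* and *Tbc1d13*, all within 2.01-fold. Just inside on the epiblast side were *Amotl1*, *Zfp266* and *Znrd1*, and just outside *Zranb3*, *Lrrc42* and *Rpusd2*. Under 2.5-fold lay 326 of the genes higher in endoderm (23.5%) and 258 of those higher in epiblast (32.6%).

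Among the function lists with members on the endoderm side only, the lipoprotein list had the highest summed RPKM, 9251 in endoderm and 137.8 in epiblast. Of 18 genes of apolipoproteins and lipoprotein assembly 11 were higher in endoderm and 0 in epiblast, and the median log2 ratio was 6.83. *Apoe*, the ligand of lipoprotein receptors, had an RPKM of 2952 against 92.8 in epiblast, and *Apoa1*, the main protein of high density lipoprotein, of 2376 against 0.912. *Apoc2*, the cofactor of lipoprotein lipase, had 46782 reads in endoderm and 4 in epiblast, the largest fold of the comparison when counts of 3 or fewer are set to 3 (95% counting interval 4683 to 44009.9, Clopper-Pearson). *Apob* (618 against 0.224), the structural protein of very low density lipoprotein, and *Mttp*, which loads lipid onto it (189.5 against 1.66), were higher together with *Apom* (559 against 0.288). *Sar1b*, a gene of vesicle transport out of the endoplasmic reticulum, had 38.97 in endoderm and 27.4 in epiblast and did not meet the criteria. More than 50% of the annotated exon bases of *Apoc2* and *Apoa4* lie in exons of other genes, so that their reads are uncertain to that extent.

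Carriers of the blood plasma were also on this side. *Ttr*, the carrier of thyroid hormone, had an RPKM of 1013 against 0.151, *Rbp4*, the carrier of retinol, of 738 against 1.79, and *Afp*, the fetal counterpart of albumin, of 441 against 0.225 in epiblast. *Trf*, the transferrin gene, had 176 against 0.422, with more than 50% of its exon bases in another gene, and *Ambp* 21.98 against 0.0380. These were 5 of the 6 genes past the criteria among 23 plasma proteins, whose median log2 ratio was 3.57. The rest of the list was at or under RPKM 5 in both libraries, and 5 of the 23 had no read in either, *Alb* and *Hp* among them. The list thus held a few carriers at high level and most liver proteins at low level or without reads.

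The coagulation genes were higher over a wider part of their list. Of 27 genes 12 were higher in endoderm and 0 in epiblast, with a median log2 ratio of 3.52. The fibrinogen chains *Fgb* (71.1 against 0.0446) and *Fgg* (39.9 against 0.0457) led, and prothrombin, *F2*, and *F10* stood lower in RPKM. *Serpinf2*, the inhibitor of plasmin, had an RPKM of 28.8 against 0.0319, and *Tfpi*, the inhibitor of the tissue factor pathway, of 22.04 against 0.743. Of the complement genes 3 of 25 were higher in endoderm, the membrane inhibitors *Cd59a* (29.1 against 1.52) and *Cd55* (23.1 against 0.630) and factor B, *Cfb* (9.81 against 0.279). The median log2 ratio of the complement list was 1.31, and more than 50% of the exon bases of *Cfb* lie in exons of another gene.

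Receptors that take up protein from the surroundings were among the most strongly endodermal genes. The cubilin gene *Cubn* had 247454 reads in endoderm and 61 in epiblast, and its partner amnionless, *Amn*, had an RPKM of 219 against 0.403. The adaptor *Dab2* had 684 against 6.99, and megalin, *Lrp2*, 41.7 against 9.26. In all 9 of 19 endocytic genes were higher in endoderm and 0 in epiblast, with a median log2 ratio of 2.01, and the transferrin receptor *Tfrc* had 15.97 in endoderm and 31.2 in epiblast, under 2-fold in the other direction. Of 24 brush border genes 11 were higher in endoderm and 1 in epiblast. Villin, *Vil1*, which bundles the actin of microvilli, had an RPKM of 99.1 against 0.413, and the peptidase *Dpp4* of 81.9 against 0.204. The anchoring proteins *Ezr* (256 against 81.6) and *Slc9a3r1* (411 against 84.7) were higher by less. The exception was *Alpl*, an alkaline phosphatase also used as a marker of germ cells (3.09 against 21.8).

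Of 35 lysosome genes 22 were higher in endoderm and 0 in epiblast, with a median log2 ratio of 1.80. The proteases *Lgmn* (811 against 13.6), *Ctsl* (774 against 51.1), *Ctsh* (519.9 against 0.849) and *Ctsz* (385 against 47.9) were the highest in RPKM, and the membrane protein *Lamp1* followed (376 against 111). *Ctsh* differed by 612-fold. *Ctsd* (118 against 61.5) and *Psap* (51.2 against 71.3) did not meet the fold criterion. Of 18 iron handling genes 5 were higher in endoderm and 0 in epiblast. *Fth1*, the ferritin heavy chain, was the highest of all genes higher in endoderm (RPKM 4215 against 573), while *Ftl1*, the light chain, had 1710.3 in endoderm and 1031 in epiblast and did not pass. *Slc40a1*, which exports iron from cells, had 16.7 against 0.520. Both ferritin genes have many processed copies in the genome, so that their uniquely mapped reads are uncertain. Of 16 metallothionein and zinc transporter genes 6 were higher in endoderm. The metal-binding *Mt1* (683 against 149) and *Mt2* (541 against 123) were higher, and so were the zinc importers *Slc39a8* (153 against 5.49), *Slc39a5* (85.6 against 0.288) and *Slc39a4* (65.8 against 2.63). The exons of *Mt2* also lie by more than 50% in another gene. The related transporter *Slc39a7*, which acts inside the secretory pathway, had 87.4 in endoderm and 71.98 in epiblast.

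Transporters of amino acids lay on both sides, with different members. Higher in endoderm were 7 of 26, led by *Slc3a2*, the shared heavy chain of several exchangers (147 against 42.8), and its light chains *Slc7a8* (103 against 0.455) and *Slc7a7* (91.6 against 11.6). Higher in epiblast were 4, *Slc38a1* (11.3 against 38.9), *Slc7a3* (0.719 against 32.2), *Slc1a5* (10.7 against 28.7) and *Slc38a4*. Of 23 organic ion and drug transporters 7 were higher in endoderm, such as the sulphate transporter *Slc13a4* (304 against 2.46) and the efflux pump *Abcg2* (68.96 against 14.3), and 1 in epiblast, *Abcc1* (3.72 against 10.9).

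Sugar metabolism split by enzyme. The genes of glycolysis and glucose uptake lay to the epiblast side, 9 of 22 against 2 in endoderm, with a median log2 ratio of -1.01 and 20 of the 22 ratios below 1. *Pkm2*, the pyruvate kinase gene, had 1478 in endoderm and 3276 in epiblast, the phosphoglycerate kinase *Pgk1* 414 in endoderm and 1049.6 in epiblast and the aldolase *Aldoa* 676 in endoderm and 1423 in epiblast. *Aldoa* was no longer past 2-fold under TMM scaling, nor with the median of ratios or equal RPKM totals. The 2 exceptions were transporters at high level in endoderm, the glucose transporter *Slc2a3* (1569 against 238) and the monocarboxylate transporter *Slc16a1* (762 against 35.9). *Slc16a3*, a monocarboxylate transporter that exports lactate, was the reverse (35.7 against 149). Among 17 genes of gluconeogenesis and glycogen 4 were higher in endoderm and 2 in epiblast. The glucose transporter *Slc2a2* had 11522 reads in endoderm and 0 in epiblast, at least 3938-fold higher against 3 reads. Of the gluconeogenic genes *Pck2* was higher in epiblast (4.31 against 11.4).

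Oxidation of fatty acids was on the endoderm side, with 12 of 28 genes higher there and 0 in epiblast, and a median log2 ratio of 1.02. *Hadh* (142 against 57.2) and *Acadm* (63.3 against 27.4) encode enzymes of the mitochondrial cycle, and *Acaa2* (33.6 against 7.06) catalyses its last step. *Etfb*, the electron carrier, had 76.4 in endoderm and 38.98 in epiblast and did not pass. Cholesterol synthesis showed little difference. Of 25 genes 1 was higher in endoderm, *Hsd17b7* (7.48 against 3.27), and 2 in epiblast, *Sqle* (9.51 against 24.3) and *Idi1* (12.5 against 25.1). Which of the sides held more members changed with the scaling. *Idi1* was not past 2-fold under TMM scaling, nor with equal RPKM totals or the median of ratios. With a pseudocount of 1 RPKM neither *Idi1* nor *Hsd17b7* passed. Glycine and folate genes were divided, 7 of 24 higher in endoderm and 4 in epiblast. Glycine cleavage was endodermal, with *Gldc* (206 against 53.9) and *Gcsh* (187 against 63.9), as were the folate receptor *Folr1* (129 against 0.481) and the threonine dehydrogenase *Tdh* (112 against 9.63). *Ahcy*, which recycles the product of methyl transfer, was higher in epiblast (143 against 307), but not under TMM scaling. Glutathione and antioxidant genes lay 6 of 29 on the endoderm side, such as *Gpx3* (381 against 16.2), and 4 on the epiblast side, such as *Gsta4* (45.5 against 120.2).

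Epithelial structure distinguished the endoderm. Of 27 tight junction and simple keratin genes 13 were higher in endoderm and 0 in epiblast, with a median log2 ratio of 1.57. The keratins *Krt8* (522 against 46.04) and *Krt18* (541 against 52.7), and the claudins *Cldn6* (507 against 95.1), *Cldn7* (107 against 22.3) and *Cldn2* (73.6 against 0.122), were among them. *Cldn2* was the most unequal of the claudins named here (605-fold). The cadherin *Cdh1* had 181 in endoderm and 156 in epiblast and *Ctnnb1*, which links cadherins to actin, 207 in endoderm and 300.05 in epiblast, and neither passed. The desmosome genes *Dsg2* (58.5 against 12.9), *Dsp* (35.6 against 9.52), *Jup* (38.9 against 15.2) and *Dsc2* (25.7 against 3.43) were higher in endoderm. In all 8 of 18 were higher in endoderm and 1 in epiblast. Of 23 basement membrane genes 10 were higher in endoderm and 0 in epiblast, with a median log2 ratio of 1.04. Among them were *Fn1* (181 against 60.9), *Sparc*, *Col4a1*, *Nid2* (113 against 17.2) and *Agrn* (83.6 against 26.7). *Sparc* and *Col4a1* are also among the parietal endoderm markers given above.

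The secretory machinery was higher in endoderm by small folds. Of 40 genes of the endoplasmic reticulum 12 were higher there and 0 in epiblast, with 38 of the 40 ratios above 1 and a median log2 ratio of 0.74. Across the scalings the number higher in endoderm ranged from 6 to 14, with 0 in epiblast throughout. *Calr*, a chaperone, had 944 in endoderm and 469 in epiblast, *P4hb*, a disulphide isomerase, 489 in endoderm and 232 in epiblast, and *Ssr2*, a translocon protein, 209.6 in endoderm and 99.6 in epiblast. These 3, with *Rpn1* and *Sec61a1*, were no longer past 2-fold when the libraries were scaled to the same upper quartile. The chaperones *Hsp90b1* (689 against 439.8) and *Hspa5* (469 against 311) did not pass. Of 27 extracellular proteases and inhibitors 8 were higher in endoderm and 2 in epiblast. *Spink3*, a trypsin inhibitor, had 1216 against 1.33 and the protease *Tmprss2* 128 against 1.25, against *Mmp2* (4.15 against 18.01) and *Timp1* (0.902 against 6.26) in the other direction.

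Of the transcription factor list of the endoderm, which also holds the Hedgehog ligand *Ihh*, 15 of 25 were higher in endoderm and 0 in epiblast, with a median log2 ratio of 3.94. *Hnf4a*, a nuclear receptor of visceral endoderm and liver, had 15342 reads in endoderm and 8 in epiblast. *Gata4* (61.4 against 2.15), *Foxa2* and *Sox17* were also among the higher of the list in endoderm RPKM. The 10 others were at or under RPKM 5 in both libraries. Of 15 anterior endoderm signalling antagonists 4 were higher in endoderm, *Cer1*, *Dkk1* (36.1 against 3.79), *Chrd* (13.4 against 3.47) and *Nog* (6.01 against 1.46), and 2 in epiblast, *Fst* (2.35 against 50.7) and *Notum* (1.18 against 5.48). *Sfrp1*, a Wnt antagonist, had 25.8 in endoderm and 24.8 in epiblast.

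**Figure D3:**
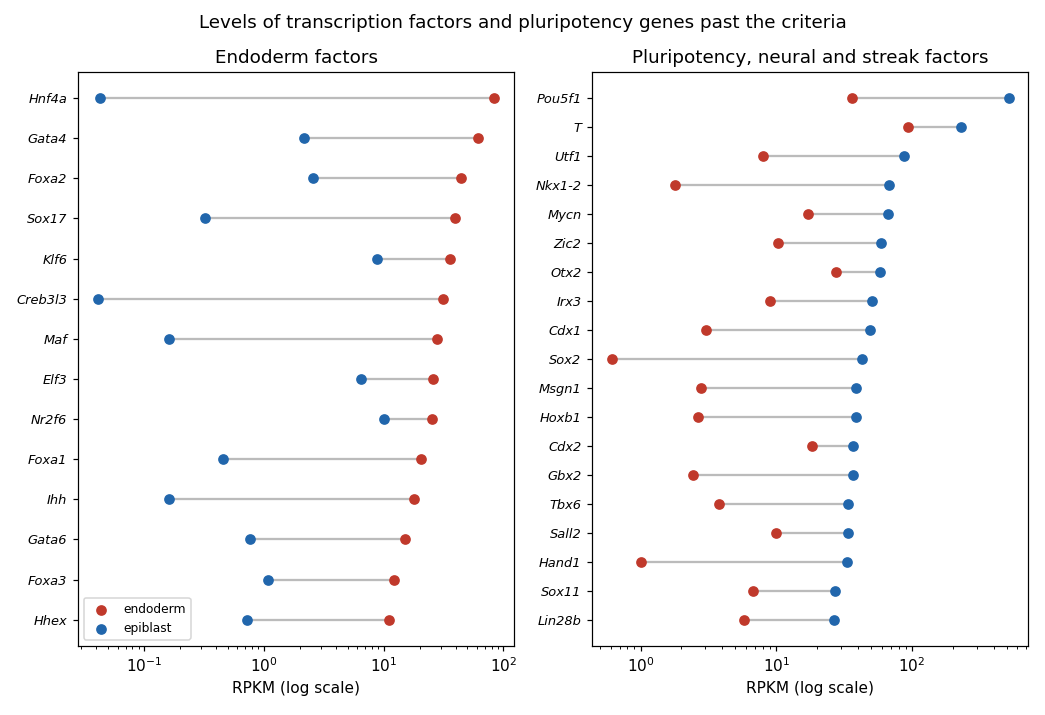
RPKM on a log scale in endoderm (red) and epiblast (blue) of 14 genes past the criteria in the endoderm factor list (left) and of 19 with a high epiblast RPKM among pluripotency, neural and streak genes (right). The 2 points of a gene are joined by a line, and *Hnf4a* and *Creb3l3* have the longest lines on the left and *Sox2* on the right.

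Regulators of pluripotency were among the genes higher in epiblast. *Pou5f1*, which keeps cells pluripotent, had an RPKM of 36.4 in endoderm and 517 in epiblast, and the difference was 14.2-fold. *Dnmt3b*, the de novo DNA methyltransferase of the epiblast, had 112 in endoderm and 649 in epiblast. *Utf1* (7.95 against 86.9), *Mycn* (17.1 against 66.8) and *Sox2* (0.616 against 42.7) were also higher in epiblast, 10 of the 29 genes of the pluripotency list in all. Higher in endoderm were 2 of that list, *Tbx3* (37.1 against 3.62) and *Myc* (23.1 against 8.81), so that the paralogs *Myc* and *Mycn* lay on opposite sides. *Lin28a* (364 against 307) and *Sall4* (73.4 against 94.1) did not pass, and the median log2 ratio of the list was -0.36. Of 16 DNA methylation genes 2 were higher in epiblast, *Dnmt3b* and *Dnmt3a* (8.005 against 30.4), and 1 in endoderm, *Mbd2* (11.2 against 3.93), while *Uhrf1*, a partner of the maintenance methyltransferase, had 81.6 in endoderm and 141 in epiblast.

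Transcription factors of neural ectoderm and of the streak were the other large group. Of 38 neural and ectoderm factors 12 were higher in epiblast and 4 in endoderm, with a median log2 ratio of -1.74. *Zic2* (10.4 against 59.04), *Otx2* and *Irx3* (8.96 against 51.1) had the highest epiblast RPKM, and *Otx2* was not past 2-fold under TMM scaling, nor with equal RPKM totals or the median of ratios. Higher in endoderm were *Msx2* (20.5 against 9.35), *Msx1* (18.3 against 3.43) and *Irx1* (16.97 against 5.30), among others. *Pou3f1*, a factor of primed pluripotency and neural tissue, had 19 reads in endoderm and 1833 in epiblast. Of 30 streak and mesoderm factors 17 were higher in epiblast and 4 in endoderm, with a median log2 ratio of -2.24. The brachyury gene *T* had 93.7 in endoderm and 229 in epiblast, *Nkx1-2* 1.79 in endoderm and 67.8 in epiblast and *Cdx1*, a posterior patterning gene, 3.06 in endoderm and 48.7 in epiblast. *Hoxb1* (2.67 against 38.6) and *Msgn1* were higher in epiblast too. The endoderm-side factors with the highest RPKM were *Tbx3* and *Lhx1* (15.3 against 2.28).

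Neuronal genes were on the epiblast side, 11 of 36 against 0 in endoderm, with a median log2 ratio of -1.61. *Crmp1* (2.81 against 52.7), *Tubb3*, a tubulin of neurons (2.42 against 36.5), and *Dpysl5* (12.1 against 31.8) were the highest in RPKM. *Elavl3*, an RNA-binding protein of neurons, was among the most unequal genes on the epiblast side, with 8 reads in endoderm and 1955 in epiblast, a 238-fold difference. *Hes3*, a repressor of neural differentiation, had 2 and 489 reads, an RPKM ratio of 238 (95% counting interval 65.7 to 1975, Clopper-Pearson). *Cxcl12*, a chemokine, was 156-fold higher in epiblast. Of 38 guidance genes 6 were higher in epiblast, led by *Epha1* (16.5 against 44.6) and *Ntn1* (8.97 against 20.5), and 5 in endoderm, led by *Efnb1* (42.2 against 5.98) and *Nrp1* (11.6 against 0.368).

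The epiblast side also held genes of chromatin and replication, at small folds. Of 34 Polycomb and chromatin repressors 7 were higher in epiblast and 0 in endoderm, with a median log2 ratio of -0.56. *Trim28*, a corepressor of retroelements, had 237 in endoderm and 569.6 in epiblast, and *Phc1* and *Rcor2* had 24.8 in endoderm and 93.9 in epiblast and 18.5 in endoderm and 70.6 in epiblast. *Hdac1* (120.04 against 179) and *Cbx1* (106 against 195) did not pass. Of 35 DNA replication genes 8 were higher in epiblast and 0 in endoderm, and 34 of the 35 ratios were below 1, with a median log2 ratio of -0.73. Across the scalings the number of these higher in epiblast ranged from 7 to 13, with 0 in endoderm throughout. The sliding clamp *Pcna* had 169 in endoderm and 376 in epiblast, and the helicase subunits *Mcm3* (86.6 against 228), *Mcm5* (82.7 against 199) and *Mcm2* (83.03 against 192) were higher. *Mcm4* was past 2-fold as deposited but not when the libraries were scaled by TMM. Neither the 30 mitosis genes nor the 35 ribosome biogenesis genes held a member past the criteria, although all 35 ribosome biogenesis ratios and 24 of the 30 mitosis ratios were below 1, with median log2 ratios of -0.52 and -0.45. The highest of them, *Npm1* (2059 against 3752) and *Ube2c* (206 against 254), lay under 2-fold. Of 22 nucleotide synthesis genes 5 were higher in epiblast, *Paics* (167 against 348) and *Prps1* (7.44 against 63.3) among them, and 1 in endoderm, *Aprt* (264 against 119.8). *Paics* was not past 2-fold under TMM scaling.

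**Figure D4:**
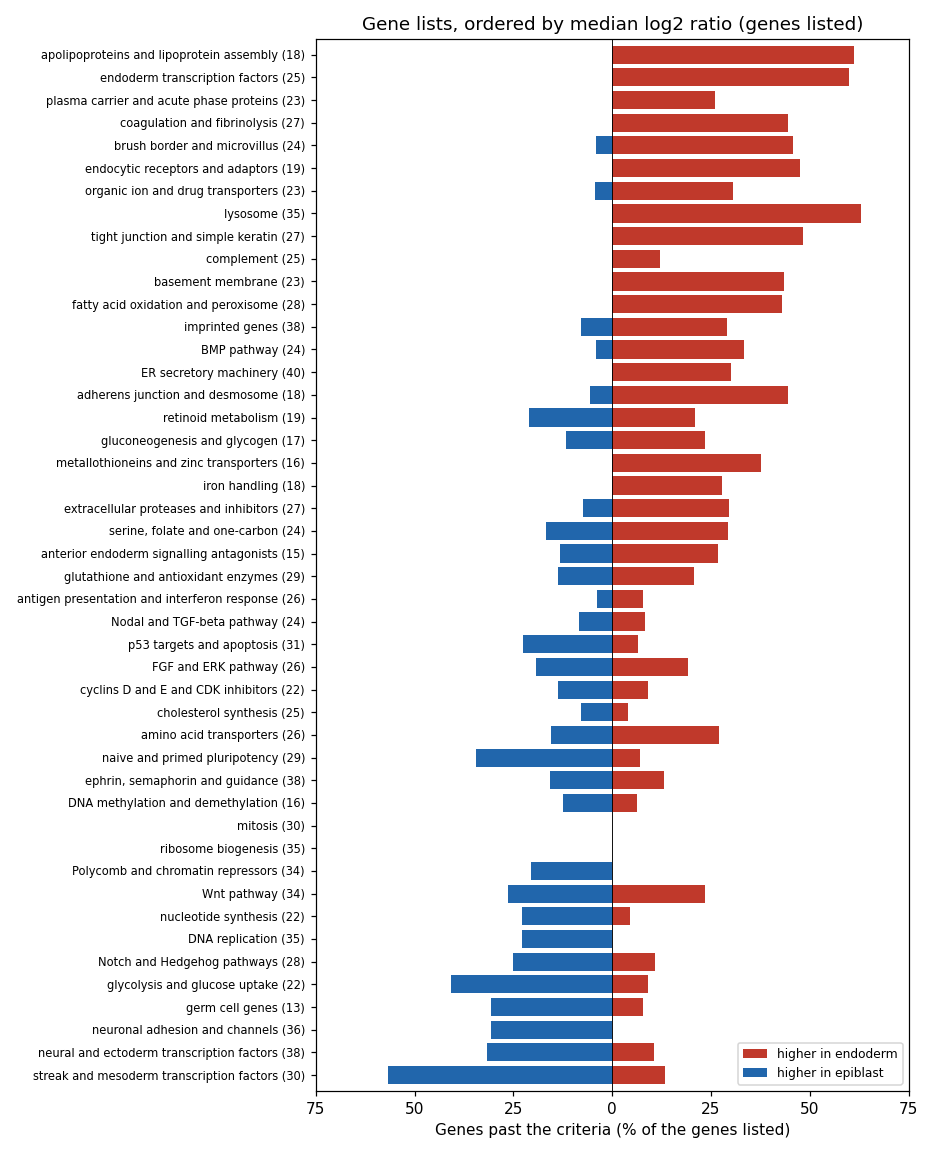
Share of the genes of each of 46 lists that were past the criteria and higher in endoderm (red, to the right) or epiblast (blue, to the left), with the number of genes listed in brackets and the lists ordered by their median log2 ratio. Lipoprotein, coagulation, lysosome and endoderm factor lists reach far to the right, and streak factors and glycolysis to the left.

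Both sides held members of the cell cycle and stress lists. Of 22 cyclin and CDK inhibitor genes 2 were higher in endoderm, the inhibitors *Cdkn1c* (89.1 against 9.60) and *Cdkn2a* (21.1 against 1.16), and 3 in epiblast, *Ccne1* (48.5 against 103), *Ccnd1* (25.5 against 74.6) and *Cdkn1a* (7.42 against 17.2), of which *Ccne1* was not past 2-fold under TMM scaling. Of 31 p53 targets and apoptosis genes 7 were higher in epiblast, such as *Trp53* itself (88.2 against 196) and *Pmaip1* (2.66 against 20.3), and 2 in endoderm, *Perp* (15.7 against 2.96) and *Casp8* (11.3 against 4.60). Of 13 germ cell genes 4 were higher in epiblast, with *Ifitm3* (5.71 against 25.5) and *Alpl* among them, and 1 in endoderm, *Prdm1* (7.61 against 0.492). Of 26 antigen presentation and interferon genes 2 were higher in endoderm, *Stat3* (15.8 against 1.69) among them, and 1 in epiblast, *H2-K1* (2.98 against 8.28). The median log2 ratios of the cyclin, p53 and antigen lists changed sign with the scaling of the libraries. The endoderm shares of the cyclin (9.09%), p53 (6.45%), germ cell (7.69%) and antigen (7.69%) lists lay near the 8.02% of all genes with a read. In epiblast the antigen share (3.85%) lay near the 4.58% of all genes. The cyclin (13.6%), p53 (22.6%) and germ cell (30.8%) shares in epiblast lay above it.

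Signalling ligands, receptors and antagonists divided between the layers. Of 24 Nodal and TGF-beta genes 2 were higher in endoderm, *Cfc1* (27.1 against 5.14) and the convertase *Furin* (45.1 against 12.1), and 2 in epiblast, *Lefty2* and the coreceptor *Tdgf1* (2.33 against 8.23), so that the coreceptors *Cfc1* and *Tdgf1* lay on opposite sides. *Nodal* itself had 4.73 in endoderm and 2.20 in epiblast and did not reach RPKM 5. Of 24 BMP genes 8 were higher in endoderm and 1 in epiblast, with a median log2 ratio of 0.75. The ligands *Bmp7* (27.8 against 7.39) and *Bmp2* (24.8 against 0.489), the antagonists *Chrd* and *Nog* and the target *Id2* (66.8 against 24.5) were endodermal, and the activin antagonist *Fst* was the exception in epiblast, while the targets *Id3* (121 against 122) and *Id1* (89.4 against 59.04) did not pass.

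Of 34 Wnt pathway genes 9 were higher in epiblast and 8 in endoderm, with a median log2 ratio of -0.61. The ligand *Wnt8a* had 23 reads in endoderm and 1620 in epiblast, and *Wnt3a* (0.774 against 13.9), *Wnt2b* and *Wnt5b* also were higher in epiblast. Receptors were divided, with *Fzd5* (13.5 against 4.72), *Fzd8* (9.74 against 3.27), *Fzd6* (7.09 against 2.54) and *Fzd4* (5.99 against 0.775) higher in endoderm and *Fzd2* (18.2 against 38.6) and *Fzd10* (0.871 against 19.7) in epiblast, of which *Fzd2* was not past 2-fold under TMM scaling. The coreceptor *Lrp5* had 52.7 in endoderm and 23.8 in epiblast. Of the nuclear factors *Tcf7l1* (26.6 against 73.4) and *Lef1* (5.78 against 32.2) were higher in epiblast and *Tcf7l2* (16.5 against 6.58) in endoderm.

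In the FGF list 5 of 26 genes were higher on each side, and the median changed sign with the scaling. *Fgfr1* (22.8 against 73.5) and the ligands *Fgf15* (0.557 against 14.1) and *Fgf8* (1.77 against 13.5) were higher in epiblast. The receptor *Fgfr4* (16.2 against 0.141) and its coreceptor *Klb* (2279 and 0 reads, at least 779-fold against 3 reads) were higher in endoderm, so that the receptors differed between the layers. In the Notch and Hedgehog list 7 of 28 were higher in epiblast, led by the ligands *Dll1* (2.67 against 19.9) and *Dll3* (3.74 against 17.5) and the Hedgehog effector *Gli2* (1.71 against 15.2), and 3 in endoderm, *Hes1* (21.9 against 7.51) and the Hedgehog ligands *Ihh* (17.9 against 0.162) and *Shh* (7.82 against 0.404). *Smo*, the signal transducer, had 38.6 in endoderm and 73.8 in epiblast. In the retinoid list 4 of 19 genes were higher on each side. The list as a whole leaned to endoderm, with 13 ratios above 1, 6 below and a median log2 ratio of 0.69. Those higher in endoderm included the carrier *Rbp4* and the degrading enzyme *Cyp26a1* (45.1 against 11.3). Those higher in epiblast included *Crabp2* (7.39 against 109), *Rarg* (8.67 against 43.8) and *Aldh1a2*, the enzyme that makes retinoic acid (5.196 against 27.3).

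**Figure D5:**
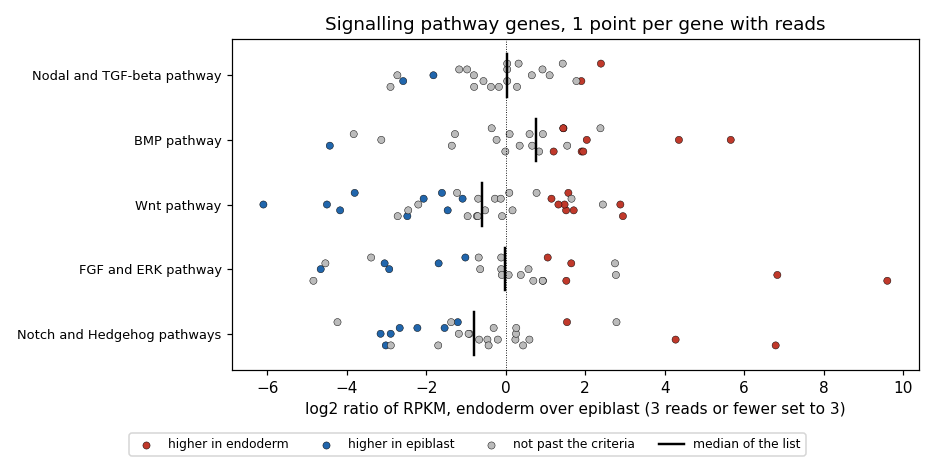
Log2 ratio of RPKM, endoderm over epiblast, of the genes of 5 signalling lists, 1 point per gene with reads, red and blue where the criteria were met, with the list median as a black bar. Each list has points on both sides of 0, and the points farthest to the right are the receptor *Fgfr4* and its coreceptor *Klb*.

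Of 38 imprinted genes 11 were higher in endoderm and 3 in epiblast, with a median log2 ratio of 0.97. The non-coding *H19* (3561 against 53.6) and its neighbour *Igf2*, a growth factor (424 against 18.02), led on the endoderm side, followed by *Peg10* (269.9 against 17.01), *Peg3* (161 against 73.3) and *Cdkn1c*. Higher in epiblast were *Mest* (32.7 against 67.8), *Slc38a4* and *Ndn* (9.49 against 21.3), and *Mest* was not past 2-fold under TMM scaling. *Rian* (212 against 122) and *Gnas* (159 against 183) did not pass. More than 50% of the exon bases of *Igf2* lie in exons of another gene.

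Gene families that share a symbol stem were next compared, 221 with at least 10 genes, of which 48 had no gene past the criteria. The families described here were picked for having among the highest shares of genes past the criteria on a side. They are therefore extremes of the 221, and whether their shares exceed those of picked families in general was not tested. Of 30 sorting nexins, *Snx* genes, 9 were higher in endoderm and 0 in epiblast, and *Snx3*, *Snx2* and *Snx6* had the highest RPKM. Of 13 *Slc39a* zinc transporters 5 and of 14 *Slc16a* monocarboxylate transporters 5 were higher in endoderm, against 0 and 2 in epiblast. Of 10 *Abcc* pumps and 10 *Bmp* genes 3 each were higher in endoderm, with 1 and 0 in epiblast. On the epiblast side were 4 of 10 *Mcm* genes, 4 of 17 *Wnt* genes, 4 of 18 *Mapk* genes and 4 of 11 *Mtap* genes of microtubule-associated proteins, against 0, 0, 0 and 1 in endoderm. The sugar transferases *Alg8*, *Alg5*, *Alg12* and *Alg6* were higher in endoderm, of 12 *Alg* genes. Of 20 *Sox* genes 5 were higher in epiblast, *Sox2*, *Sox12*, *Sox11*, *Sox3* and *Sox13*, and *Sox17* in endoderm. Of 12 *Akr* aldo-keto reductase genes 4 lay on the endoderm side and 3, *Akr1b3*, *Akr1b8* and *Akr1b10*, on the epiblast side. In the *Snhg* family of snoRNA host genes 4 of 11 were higher in epiblast, and more than 50% of the exon bases of *Snhg3* lie in exons of other genes.

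Genes past the criteria also lay side by side. Of 17100 genes put in genome order 2160 were past the criteria. They formed 27 runs of 3 or more consecutive genes on the same side, 19 endodermal and 8 epiblastic. Adjacent pairs numbered 220 on the same side and 87 on opposite sides. How many runs and pairs arise by position alone was not tested. The larger number of genes higher in endoderm (1385 against 791 in epiblast) by itself favours runs on that side. The 4 runs of 4 genes were all on the endoderm side, the apolipoprotein cluster *Apoa1*, *Apoc3*, *Apoa4* and *Apoa5* on chromosome 9 among them. *Fgg*, *Fga* and *Fgb* on chromosome 3, *Col4a1*, *Col4a2* and *Rab20* on chromosome 8, and *H19*, *Igf2* and *Igf2as* on chromosome 7 were runs of 3. *Igf2as* is an antisense transcript of *Igf2*, and the use of strand in counting is not stated, so that their reads cannot be told apart.

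Some promoter sequences of leading genes are shown for context, without a comparison between the sides. Only 1691 of the 2176 genes past the criteria (13371 of all 17267) had a sequence in the RefSeq table, under 80%, so that the check of promoter features over these genes is void. The sequences were chosen by a rule on the share of promoters with a motif, which on both sides picked the GC box. Read as a ratio of shares in place of a difference, which was tried after the values were seen, the rule would have picked a different motif on each side. The GC box (GGGCGG, either strand) is found in 57.3% of all 300-base promoters of the table. Each sequence is the 150 bases before the start, 5′ to 3′ on the strand of the gene, from GRCm38.p6 as given by RefSeq, with the GC boxes in capitals, and a match is a description and no binding site.
Gpc3 (chrX:52613975-52614124, minus strand): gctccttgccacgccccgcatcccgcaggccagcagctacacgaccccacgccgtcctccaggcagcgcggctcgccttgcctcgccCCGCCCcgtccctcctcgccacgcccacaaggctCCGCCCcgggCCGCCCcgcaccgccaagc
Slc16a1 (chr3:104638514-104638663, plus strand): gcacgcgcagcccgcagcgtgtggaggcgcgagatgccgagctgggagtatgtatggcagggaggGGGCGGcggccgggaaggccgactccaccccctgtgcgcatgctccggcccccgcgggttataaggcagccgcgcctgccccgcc
P4hb (chr11:120573254-120573403, minus strand): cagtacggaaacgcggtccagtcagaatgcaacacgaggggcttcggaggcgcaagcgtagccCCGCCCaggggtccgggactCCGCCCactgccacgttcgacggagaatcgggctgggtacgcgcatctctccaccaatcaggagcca
Mif (chr10:75860278-75860427, minus strand): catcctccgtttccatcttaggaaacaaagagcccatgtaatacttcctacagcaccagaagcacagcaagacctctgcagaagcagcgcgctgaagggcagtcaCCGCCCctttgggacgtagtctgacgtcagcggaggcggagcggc
Aldoa (chr7:126799255-126799404, minus strand): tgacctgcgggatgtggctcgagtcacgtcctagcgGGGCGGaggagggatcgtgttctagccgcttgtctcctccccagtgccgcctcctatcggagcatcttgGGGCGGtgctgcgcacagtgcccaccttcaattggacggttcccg
Dnmt3b (chr2:153649299-153649448, plus strand): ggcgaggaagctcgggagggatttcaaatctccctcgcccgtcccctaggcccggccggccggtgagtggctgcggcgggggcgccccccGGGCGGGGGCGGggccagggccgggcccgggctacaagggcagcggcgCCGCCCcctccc
*Gpc3*, a glypican of the cell surface, had an RPKM of 764 against 80.04, *Slc16a1* of 762 against 35.9 and *P4hb* of 489 against 232 in epiblast. *Mif*, a cytokine gene, has processed copies in the genome, so that its uniquely mapped reads are uncertain.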

How the data were processed

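RNA of endoderm and epiblast was sequenced with paired-end reads, as 1 library each. The authors deposited, for each gene with a read, its length, the count of its uniquely mapped reads, the RPKM and the percent of the length that reads cover. The deposited RPKM equals the count divided by length and library total. The submitters' processing notes name TopHat, mm10 and mm9, and the counter and annotation of these tables are not given in the sources used here, nor is the use of strand.

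The tables were joined on the gene symbol. Spreadsheet software had turned 23 symbols into dates, and 5 of these met the criteria. The 12 genes whose length differed between the tables did not. The members and the 55 gene lists (46 of functions, 9 of markers) were chosen with earlier results of these data known, so that no list is independent evidence. Named were the 10 genes with the highest RPKM and the 10 with the largest fold per side, up to 5 genes past the criteria per list by RPKM with up to 3 of the smaller side and 2 that did not pass, up to 4 per family or run, the threshold genes and the markers. *Mttp*, *Lrp2*, *F2*, *F10*, *Fzd4*, *Fzd6*, *Aldh1a2*, *Igf2as*, *Rab20*, *Sox13*, *Akr1b8*, *Creb3l3*, *Gpc3*, *Alb* and *Hp* were named after their values were seen. Overlap of exons was taken from GENCODE M21 for 2156 of the 2176 genes, of which 28 share more than 50% of their exon bases. Tables of proteins were not used here, and some genes past the criteria are not reported here.

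Alternatives were other RPKM minimums and folds, a pseudocount, 4 scalings (TMM from edgeR 4.0.16), the FDR of the Audic and Claverie test, the counting interval and the covered length. The software was R 4.3.3, Python 3.11.15, SciPy 1.17.1, numpy 2.4.6, matplotlib 3.10.9 and pandas 2.3.3. The mesoderm library was used only for the number of genes in the series.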

Additional observations from a re-analysis of the deposited data

How the results depend on the processing

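The number of genes past the criteria, 2176 as reported, moved with the thresholds and little with the scaling. With an RPKM above 1 it was 3589 (2030 higher in endoderm and 1559 in epiblast), with no RPKM minimum 5894 (3068 and 2826) and with an RPKM above 10 it was 1546 (1037 and 509). A fold above 1.5 gave 3922 (2145 and 1777) and a fold above 4 gave 898 (636 and 262). The FDR of the Audic and Claverie test removed 0 genes, a counting interval wholly past 2-fold left 1931 and a pseudocount of 1 left 1963. Among the scalings, TMM moved the median log2 ratio of all genes by 0.10 and gave 1566 genes higher in endoderm and 667 in epiblast, and the same upper quartile moved it by -0.11 and gave 1244 and 950. Of 325 named genes past the criteria, TMM left out 21 and the upper quartile 13. A gene or list value was further compared with its value under another setting, in 3095 comparisons. Of these 0 turned a gene past the criteria, or a list median beyond 1 on the log2 scale, to the other direction. The scalings moved log2 ratios by only about 0.1, so that values beyond 1 could not have been reversed by them. No conclusion on stability is drawn from this count. No paired analysis was possible because each group has 1 library, and for the same reason no library could be left out. Depth limits the low end, since a fold against 0 reads has no upper limit and a ratio against 1 to 3 reads has a wide counting interval.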
